A study of Arabidopsis thaliana with 4 samples.

Results

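The mitochondrial glycoprotein family of Arabidopsis thaliana, a set of nuclear genes related to yeast MAM33, was followed in seeds held cold or warm. The family was taken as 8 loci, and all 8 had a probe set paired with exactly 1 gene, out of 13286 genes with such a probe set. Each member had 1 single-gene probe set, so no choice between probe sets was needed. The family was picked because AT5G02050 was far higher at 4 °C than at 22 °C. The difference between the temperatures is therefore given below as a description of the members, and it supports nothing further. No p-value of a member is printed. How many members passed the threshold of the fit over all probe sets is given, and nothing is read from that count.

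The best studied proteins of this family are small, acidic and found in the mitochondrial matrix. The founding member in yeast is Mam33, and the human relative is C1QBP, also called p32. In yeast and in human cells these proteins are linked to synthesis of the proteins encoded by mitochondrial DNA and to upkeep of the respiratory chain. Dry seeds carry poorly differentiated mitochondria, which mature once the seed has taken up water. The individual role of each Arabidopsis member is not stated here.

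The series used seeds of the Ler-0 accession (Landsberg erecta background, stock NW20), with no mutation or added agent named in the labels. All seeds were incubated for 96 h in darkness. They were at 22 °C in one group and at 4 °C in the other, with 2 arrays per temperature. The arrays are called warm A and B and cold A and B after the last letter of their titles. No array held seeds from before the incubation. Below, rose and fell therefore mean higher and lower at 4 °C than at 22 °C, and not a change from a starting level. The labels name the stage as dry seeds and yet describe an incubation, and they do not say whether A and B came from separate seed batches. The p-values of other genes below therefore rest on replicate spread that may be technical.

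Total RNA was read on an Affymetrix array with 22810 probe sets. Signals are deposited MAS5 intensities on a linear scale, rescaled so that the trimmed mean of each array is 500, and they have no unit. An array has no read depth, and the number of arrays limits the precision. Replicates differed more in the warm than in the cold: over the 15847 probe sets kept, the SD of the log2 difference between the warm replicates was 1.10, and between the cold replicates 0.646. Of 29 seed maturation markers, 12 were measured, with signals from 104.4 to 17459 and none at 0. Their summed signal was 139096 on warm A and 74821 on warm B, 69823 on cold A and 61255 on cold B, so that warm A stood apart and warm B was close to cold A. In the fit described below 2 of the 12 fell at 4 °C, 0 rose and 10 did not pass. Of all probe sets kept, 2.34% passed as lower and 2.71% as higher. Of the 2 that fell, AT2G42560 went from a mean of 6428 at 22 °C to 156.7 at 4 °C. M10, among the 10, had a mean of 12160 at 22 °C and 15028 at 4 °C. Of 10 green seedling markers 1 was measured, the antenna protein gene LHCB4.1, with signals of 3717 and 3835 on the warm arrays and 289.8 and 214.9 on the cold arrays. Of 6 seed coat markers 2 were measured, with signals of 4.50 to 24.4, and neither of the 2 endosperm markers was measured. LHCB4.1 and the 2 seed maturation markers that passed were lower at 4 °C, and their part in the results below was not tested.

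All 8 members had a higher mean signal at 4 °C than at 22 °C, and AT5G02050 differed most. The ratio of the mean 4 °C signal to the mean 22 °C signal ran from 1.69 for AT1G15870 to 17.6 for AT5G02050. For 7 of the 8, both 4 °C arrays lay above both 22 °C arrays, an arrangement seen at 25.7% of all probe sets kept. Fold changes below are log2 values of 4 °C minus 22 °C on the signal plus 32, which understates the change of weak signals. The members' median was 2.31, and 2.21 without AT5G02050, beside a median of -0.125 over all probe sets kept. In a whole seed, fewer cells that hold a transcript and less of it per cell cannot be told apart.

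**Figure D1:**
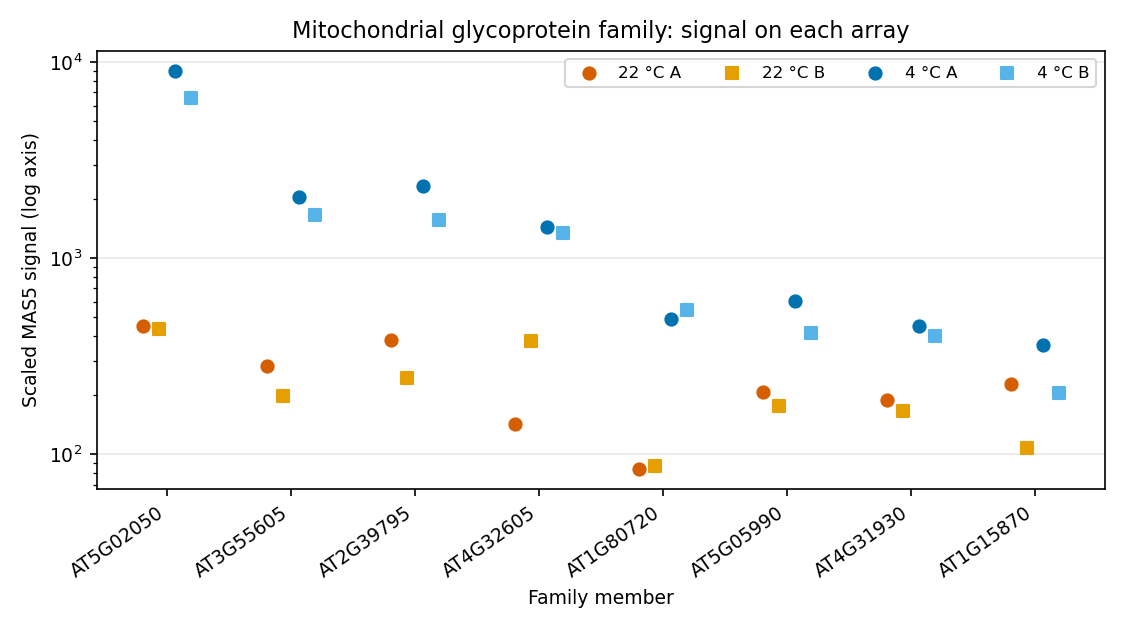
Scaled MAS5 signal (log axis) of each family member on each of the 4 arrays, circles for replicate A and squares for replicate B. Both 4 °C arrays sit above both 22 °C arrays for 7 members, and AT1G15870 is the member whose temperatures overlap.

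AT5G02050 had signals of 448.5 and 437.0 on warm A and B and of 9036 and 6591 on cold A and B. Both cold arrays were far above both warm ones, and the warm arrays were nearly equal. The lower cold array was 14.7 times the higher warm array. The log2 fold change was 4.03 ± 0.458 (SE, n = 2 per temperature), which placed it at rank 15 of 15847 probe sets.

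Next in size was AT3G55605, with signals of 282.6 and 199.2 on warm A and B and of 2054 and 1663 on cold A and B. Its temperatures were well apart, and its mean at 4 °C was 7.72 times that at 22 °C. AT2G39795 had 384.4 and 244.3 on the warm arrays A and B and 2327 and 1564 on the cold arrays A and B, a ratio of 6.19. In both genes replicate A was the higher array at either temperature. Their log2 fold changes were 2.80 ± 0.462 and 2.52 ± 0.491 (SE, n = 2 per temperature).

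AT4G32605 was the member with the most unequal warm arrays. Its signal was 141.9 on warm A and 376.2 on warm B, against 1434 and 1347 on cold A and B. The groups did not overlap, but the size of the difference depended on the warm array: cold A was 10.1 times warm A, and cold B was 3.58 times warm B. The log2 fold change was 2.42 ± 0.540 (SE), 1.80 without warm A and 3.03 without warm B.

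AT1G80720 had signals of 84.4 on warm A, 87.4 on warm B, 487.1 on cold A and 540.8 on cold B. Replicates were close at both temperatures, and the cold arrays stood clearly above the warm ones. The log2 fold change was 2.21 ± 0.424 (SE, n = 2 per temperature). With no pseudocount it was 2.58, since 32 is a sizeable part of its warm signal.

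A further 3 members differed less between the temperatures. AT5G05990 had 207.6 and 175.2 on warm A and B and 603.9 and 415.5 on cold A and B, a log2 fold change of 1.26 ± 0.444 (SE). AT4G31930 had 188.0 and 165.8 on the warm arrays and 450.3 and 399.7 on the cold ones, with 1.13 ± 0.424 (SE). In both, the lower cold array still lay above the higher warm array. AT1G15870 had 226.9 and 106.9 on warm A and B and 360.1 and 205.5 on cold A and B. Its temperatures overlapped, since cold B lay below warm A. Its log2 fold change of 0.69 ± 0.517 (SE) was smaller than the gap of 0.90 between its warm replicates. It was 1.14 without warm A, 0.24 without warm B, 0.32 without cold A and 1.05 without cold B.

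**Figure D2:**
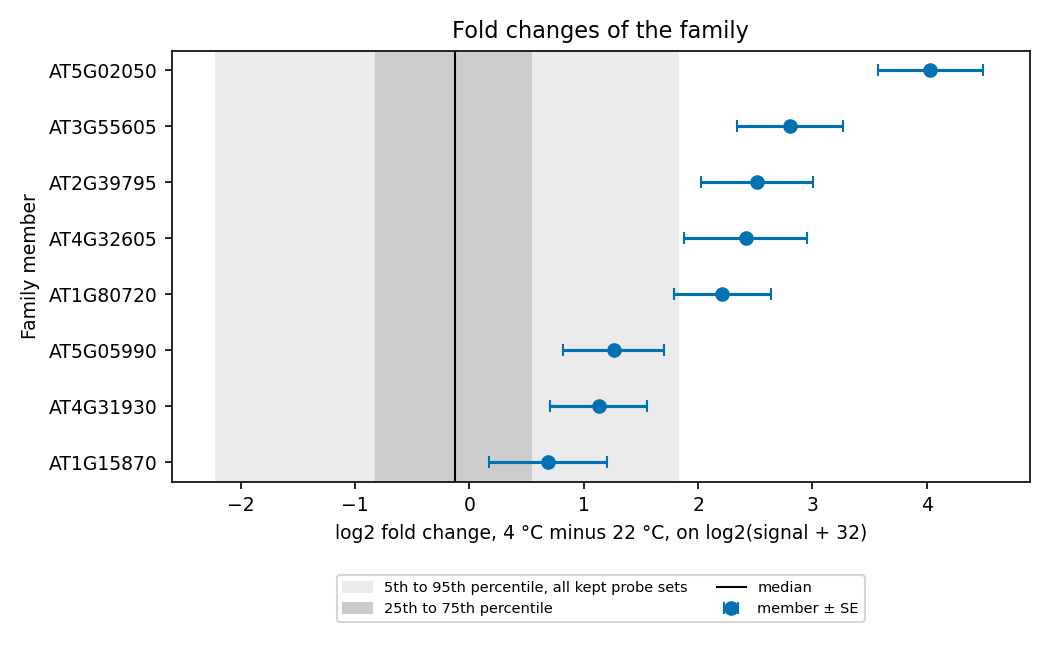
Log2 fold change of each family member (4 °C minus 22 °C, on the signal plus 32; bars are the SE of the limma fit, 2 arrays per temperature), over bands for all 15847 probe sets kept. The 5 upper members lie above the 95th percentile of 1.82, and the other 3 lie between it and the 75th percentile of 0.542.

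The fit over all probe sets (limma, Benjamini-Hochberg adjusted p under 0.05) passed 5 of the 8 members as higher at 4 °C and 0 as lower, namely AT5G02050, AT3G55605, AT2G39795, AT4G32605 and AT1G80720. Over all probe sets kept, 5.05% passed, 2.71% as higher and 2.34% as lower. Because the family was picked on this contrast, nothing is read from these shares. The smallest absolute log2 fold change that passed anywhere was 1.81, so the remaining 3 members, at 0.69 to 1.26, were smaller than any change that this fit called. With 1 array left out, the calls over all probe sets moved widely too, so counts of members passing are not read from those fits. The log2 fold change of AT5G02050 was then 4.05 without warm A, 4.01 without warm B, 3.80 without cold A and 4.26 without cold B. That of AT5G05990 was 1.36, 1.16, 1.01 and 1.51 in the same order. An exact permutation test of a single member, 2 arrays against 2, cannot give a two-sided p under 0.333 and was not used.

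The replicates were compared within each temperature, which the choice of the family did not use. At 4 °C, array A was higher than array B for 7 of the 8 members, AT1G80720 being the exception. Over all probe sets kept, A was the higher cold array at 46.7%. The members' median log2 difference, B minus A, was -0.38 at 4 °C, beside 0.0473 over all probe sets. At 22 °C, A was higher for 6 of 8, beside 52.0% of all probe sets, with a members' median of -0.18. The exceptions there were AT4G32605 and AT1G80720. No test was run on these shares, since the members of a family on the same arrays are not independent.

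Compared within a letter, every member was higher in the cold. The labels do not pair the arrays by letter, so the 2 letters are not matched repeats. For the 7 members with both cold arrays above both warm arrays, any pairing gives this direction. The ratios are a description. The ratio of cold A to warm A was 20.1 for AT5G02050, 7.27 for AT3G55605, 6.05 for AT2G39795 and 5.77 for AT1G80720. The ratio of cold B to warm B was 15.1, 8.35, 6.41 and 6.18 for the same genes in that order. These 4 genes gave similar ratios for either letter, unlike AT4G32605. For AT5G05990, AT4G31930 and AT1G15870 the ratios were 2.91, 2.39 and 1.59 within A and 2.37, 2.41 and 1.92 within B.

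The members were also set against each other by the shape of their pattern over the 4 arrays, measured as the Euclidean distance between log2 values after each gene was centred on its own mean. Of the 28 pairs of members, the closest were AT5G05990 with AT4G31930 (distance 0.281) and AT3G55605 with AT2G39795 (0.357). The farthest pair was AT5G02050 with AT1G15870 (3.40). The member nearest to AT5G02050 was AT3G55605, at 1.27, which ranked 44 among the 8624 genes compared. Such distances over 4 arrays mostly reflect the size of the temperature difference.

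The 5 genes outside the family with patterns nearest to AT5G02050 were AT1G52930, AT4G10450, AT3G59670, AT4G36580 and AT5G06190, at distances of 0.406, 0.547, 0.668, 0.698 and 0.806. AT1G52930, a factor of ribosome assembly in the nucleolus, had 597.0 and 389.4 on warm A and B and 8820 and 7154 on cold A and B. AT4G10450, a protein of the large subunit of the cytosolic ribosome, had 688.9 and 731.6 on the warm arrays and 9705 and 7090 on the cold ones. In both genes the cold arrays had A above B, as in AT5G02050. AT3G59670 and AT4G36580, the latter an AAA-type ATPase, had mean warm signals of 135.7 and 77.6 and mean cold signals of 2493 and 1669, with B above A in the cold. AT5G06190 had 91.6 ± 32 at 22 °C and 1706 ± 1076 at 4 °C (SD, n = 2). These genes were found by their likeness on the same arrays, so their values are a description.

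The proteins that work around the family were read from 7 lists of nuclear genes for mitochondrial functions, written by locus. The lists were chosen with earlier results of these data known, so their counts are a description. Of 212 listed genes 76 were measured, and the filter kept 73. In the limma fit 4 of the 73 rose at 4 °C, 0 fell and 69 did not pass, beside 2.71% of all probe sets kept that passed as higher and 2.34% as lower. At an unadjusted p under 0.05, 30 were higher and 0 lower, beside 11.6% and 14% of all probe sets kept. The count past the adjusted threshold was 9 with a filter at a signal of 200 and 0 with no filter. Over all probe sets, 1266 of 11275 and 2 of 22746 passed under these filters. Counts with 1 array left out are not read here, since the calls over all probe sets then moved as well. Both 4 °C arrays were above both 22 °C arrays in 49 of the 73 and below them in 2, beside 25.7% and 31.4% of all probe sets kept. The log2 fold change was above 0 in 68, beside 44.7% of all probe sets. The median was 1.06, against 2.31 for the family. Because the family was picked on this contrast, nothing is read from that gap. No list was tested as a list.

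Mitochondrial ribosomal proteins and translation factors, which make the proteins encoded by mitochondrial DNA, had 26 measured genes. Of these 3 rose, 0 fell and 23 did not pass, beside 2.71% of all probe sets kept that passed as higher. The median log2 fold change was 1.55, with a range from 0.32 to 2.57. AT1G26740, a ribosomal protein of the L32 family, rose from 144.5 ± 67.1 to 1003 ± 325 (SD, n = 2; log2 fold change 2.57 ± 0.501, SE; limma adjusted p = 0.0387). AT4G02930, the mitochondrial elongation factor Tu, had 1012 and 1108 on warm A and B and 5117 and 6019 on cold A and B, and it rose by 2.35 ± 0.443 (limma adjusted p = 0.038). AT5G20180, of the L36 family, rose from 598.5 ± 89.7 to 3389 ± 1462, by 2.38 ± 0.509 (limma adjusted p = 0.0453). In 20 of the 26 genes both cold arrays lay above both warm arrays, beside 25.7% of all probe sets kept. For this list too, counts past the threshold with an array left out are not read, since the calls over all probe sets moved as well.

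**Figure D3:**
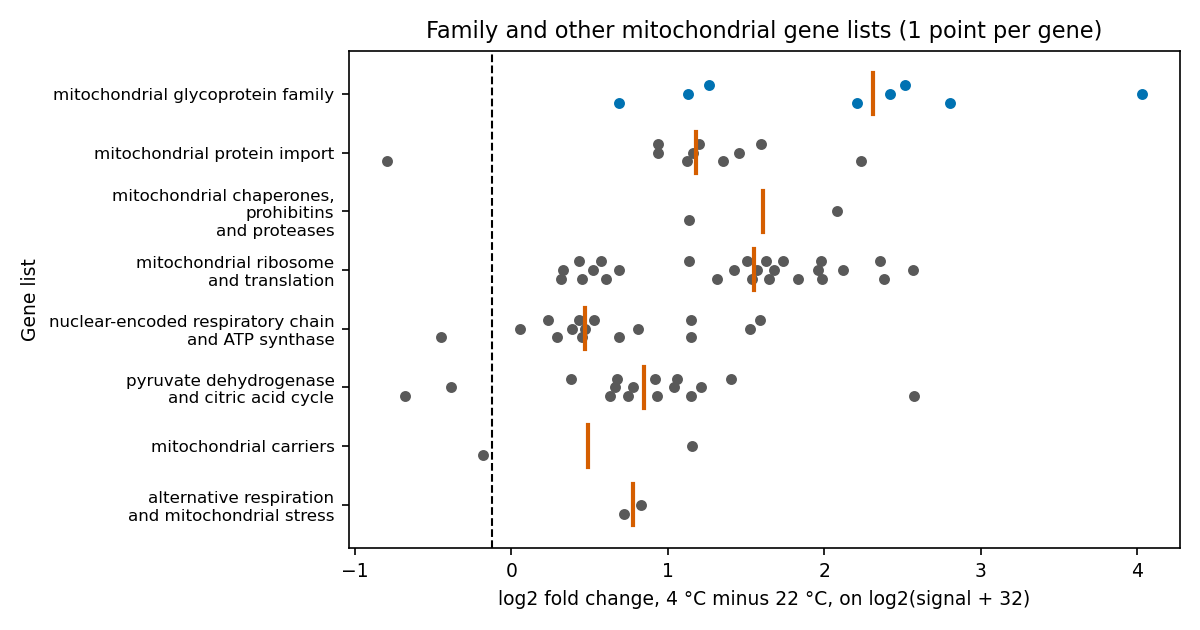
Log2 fold change (4 °C minus 22 °C, on the signal plus 32) of each gene kept by the filter in the family and in 7 lists of mitochondrial genes. Each point is a gene, orange bars are list medians and the dashed line is the median of all probe sets kept, -0.125. The family's median is 2.31, and that of ribosome and translation genes is 1.55. The family was picked on this contrast, so the medians are a description.

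Of 10 measured genes of protein import into mitochondria, 0 passed the limma test, beside 5.05% of all probe sets kept. Their median log2 fold change was 1.18. At an unadjusted p under 0.05, 6 were higher, beside 11.6% of all probe sets kept. The log2 fold change was above 0 in 9, beside 44.7%. The largest was in AT3G09700, a DnaJ-domain protein of the import motor type, with 160.8 and 49.1 on warm A and B and 1009 and 299.8 on cold A and B (log2 fold change 2.23 ± 0.678, SE; limma adjusted p = 0.0945). It was 2.86 without warm A, 1.61 without warm B, 1.41 without cold A and 3.06 without cold B. Of 23 listed chaperone, prohibitin and protease genes only 2 were measured, and both missed the threshold. At an unadjusted p under 0.05, 2 of 2 were higher, beside 11.6% of all probe sets kept. AT1G23100, a co-chaperonin of the GroES type, had 37.5 ± 6.43 at 22 °C and, in the cold, 278.6 ± 145 (SD, n = 2). Its log2 fold change was 2.08 (limma adjusted p = 0.0633), and it passed after quantile normalization and after median centring. Both warm signals, 33.0 on A and 42.1 on B, lay below 64, the filter level for the mean signal. The gene was therefore kept through its cold arrays, and a filter at 200 left it out. The warm signals were also near the pseudocount of 32. The log2 fold change was 2.80 with a pseudocount of 0 and 1.41 with 100. It was 1.985 without warm A, 2.17 without warm B, 1.58 without cold A and 2.58 without cold B.

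Enzymes of the pyruvate dehydrogenase complex and the citric acid cycle had 16 kept genes of 18 measured (median log2 fold change 0.85). Of the 16, 1 rose, 0 fell and 15 did not pass, beside 2.71% of all probe sets kept that passed as higher. The gene that rose was AT5G23250, an alpha subunit of succinyl-CoA ligase, with 459.5 and 617.4 on warm A and B and 3495 and 3177 on cold A and B (log2 fold change 2.57 ± 0.460, SE; limma adjusted p = 0.0361). With 1 array left out its log2 fold change ran from 2.373 without warm A to 2.775 without warm B. Nuclear-encoded subunits and assembly factors of the respiratory chain and ATP synthase had 15 measured genes, with the lower median of 0.47. Of these 0 passed the limma test, beside 5.05% of all probe sets kept. At an unadjusted p under 0.05, 3 were higher, beside 11.6% of all probe sets kept. The largest value among the 15 was 1.59 in CYTC-1, a cytochrome c gene (limma adjusted p = 0.103). With 1 array left out it was 1.12 without warm A, 1.27 without cold A, 1.91 without cold B and 2.06 without warm B.

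The 2 remaining lists had 2 kept genes each. Of 17 listed carriers 2 were measured, and of 9 listed genes of alternative respiration and mitochondrial stress 3 were. In both lists 0 passed the limma test, beside 5.05% of all probe sets kept. At an unadjusted p under 0.05 there were also 0, beside 11.6% higher and 14% lower of all probe sets kept. So few genes tell little about either class. Among mitochondrial carriers, AT5G19760, a dicarboxylate and tricarboxylate carrier, had 2220 and 6987 on warm A and B and 7899 and 9838 on cold A and B (log2 fold change 1.15; limma adjusted p = 0.272). It was 0.33 without warm A and 1.97 without warm B. Among genes of alternative respiration and mitochondrial stress, AT2G21640 had 93.8 and 355.8 on warm A and B and 476.1 and 270.9 on cold A and B, so its temperatures overlapped (log2 fold change 0.83; limma adjusted p = 0.452). It was 0.017 without warm A and 0.46 without cold A, against 1.20 without cold B and 1.64 without warm B.

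**Figure D4:**
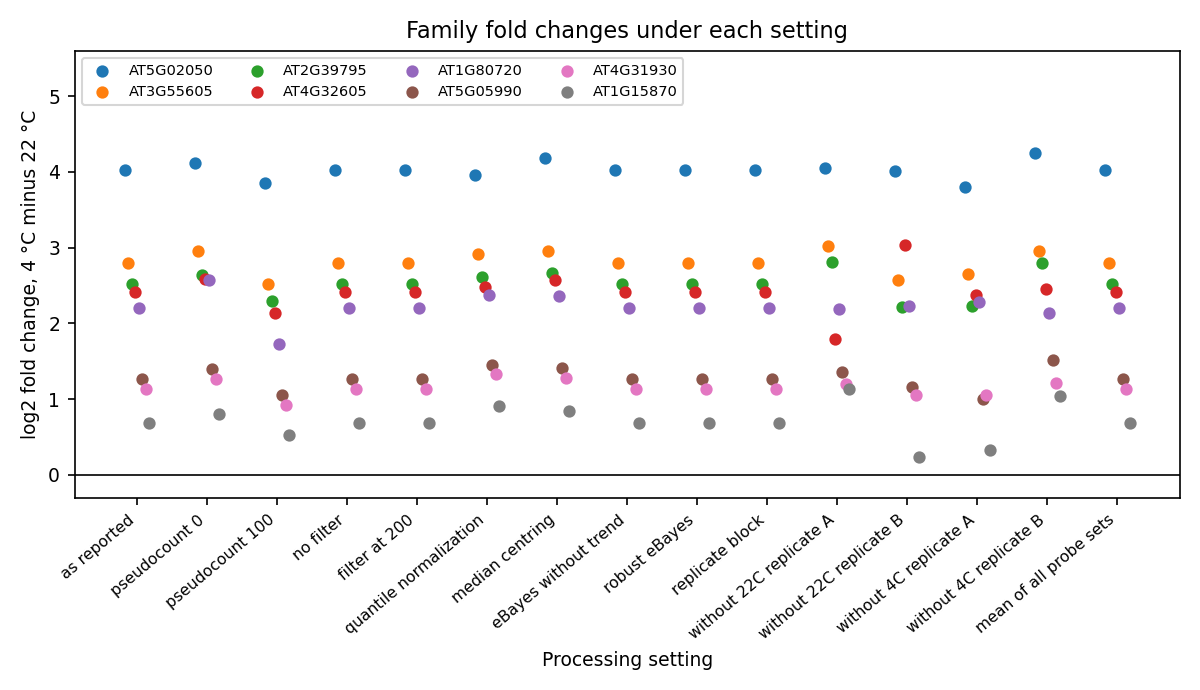
Log2 fold change (4 °C minus 22 °C) of each family member as reported and under 14 other settings of the processing, 1 point per member and setting. All values lie above 0, AT5G02050 is the highest under each setting (3.80 to 4.26) and AT1G15870 ranges from 0.24 to 1.14. Settings that change only the filter, the eBayes variant or the block leave the values as reported.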

How the data were processed

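The authors deposited 1 linear intensity per probe set. The submitters' processing notes name MAS5, with no version. From the values, each deposited array had a 2% trimmed mean of 100. No source used here gives the background step, the detection calls or the build. Each array was multiplied to a trimmed mean of 500. The 64 control probe sets were left out, and 15847 of 22746 others with a mean scaled signal of at least 64 were kept, all 8 members among them. limma 3.58.1 in R 4.3.3 (lmFit, eBayes with trend, no covariate) was run on log2(signal + 32), 4 °C minus 22 °C, with Benjamini-Hochberg adjustment at 0.05, and was tested on simulated data. Names came from the platform annotation, updated through RefSeq (TAIR10.1), which matched 13436 of 13513 single-gene probe sets. A gene was represented by its probe set with the highest mean signal.

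Members and lists were chosen with earlier results of these data known. The text names all members, from each list up to 4 genes past the threshold or else the one with the largest absolute value, and the 5 genes nearest to AT5G02050. Protein and promoter comparisons that had been planned were not run. Alternatives were pseudocounts of 0 and 100, no filter or one at 200, quantile normalization, median centring, eBayes without trend or robust, the replicate letter as a block, the mean of a gene's probe sets, and each array left out.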

Additional observations from a re-analysis of the deposited data

How the results depend on the processing

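No member's direction changed under any of the 14 alternatives. The count of members with both 4 °C arrays above both 22 °C arrays stayed at 7, or 8 without warm A or without cold B. Much of this was fixed beforehand. The filters, the eBayes variants, the block and the mean of a gene's probe sets leave a member's log2 fold change as it was. A pseudocount cannot change the order of the arrays, and leaving out an array can only keep or raise that count. The median log2 fold change of all probe sets moved from -0.125 to 0.0448 after quantile normalization and to 0.0304 after median centring, and 5 members passed under both. The count of members past the threshold, 5, was 2 with a pseudocount of 100 (AT5G02050 and AT3G55605), 0 with no filter, 4 without the variance trend, where AT4G32605 missed, and 0 to 6 with 1 array left out. Probe sets past the threshold numbered 801, against 226 with a pseudocount of 100, 2 with no filter, 1266 with a filter at 200 and 1 to 4277 with 1 array left out. With an array left out, the spread came from the pair at the other temperature and the lone array was assumed to vary like it. With the replicate block 2879 probe sets passed, all 801 among them, and the same number of members, 5. Nothing in the labels pairs the arrays by letter, and the B minus A differences at 22 °C and 4 °C correlated across probe sets with r = 0.209.

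Listed mitochondrial genes past the threshold, 4 in all, were 1 with a pseudocount of 100, 0 with no filter, 9 with a filter at 200, 21 with the replicate block and 0 to 27 with 1 array left out. Of these, ribosome and translation genes (3) were 0 with a pseudocount of 100 or no filter, 8 with a filter at 200, 15 with the block and 0 to 15 with 1 array left out. Citric acid cycle genes (1) were 0 with no filter and 0 to 7 with 1 array left out. Import genes (0) were 2 with the block and 0 to 3 with 1 array left out, and respiratory chain genes (0) were 2 and 0 to 2. Chaperone genes (0) were 1, AT1G23100, with quantile normalization, median centring or the block and 0 to 1 with 1 array left out. Carriers and alternative respiration (0 each) ranged from 0 to 1 with 1 array left out. The cause of these shifts was not tested. Detection calls were not used, so whether the weakest warm signals of the family, near 85, stood above background is not known.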

Other observations

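The genes next to the members on the chromosomes were read after the results were seen. Of 16 immediate protein-coding neighbours 4 had a kept single-gene probe set, and 0 of these passed the limma test, with an unadjusted p under 0.05 in 1. Over all probe sets kept, 5.05% passed, and at an unadjusted p under 0.05, 11.6% were higher and 14% lower. AT5G02040, beside AT5G02050, had a log2 fold change of -0.55, and AT4G32600, beside AT4G32605, had -0.46, each with both 4 °C arrays below both 22 °C arrays. AT3G55600, beside AT3G55605, had 0.29, and AT1G15860, beside AT1G15870, had 1.34, with both 4 °C arrays above both 22 °C arrays. Over all probe sets kept, both 4 °C arrays were below both 22 °C arrays at 31.4% and above them at 25.7%. No test was run on these 4 values, and too few neighbours were kept to set them against the members.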
